A study of Mus musculus with 4 samples.

Results

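The genes described here encode 10 enzymes that break down the branched-chain amino acids leucine, isoleucine and valine, or that control this breakdown: Bcat2, Bckdha, Bckdhb, Dbt, Bckdk, Ppm1k, Ivd, Mccc1, Mccc2 and Hibch. They were chosen by name from the pathway, among 20145 genes that could be named on the array, and 11 probes measure them because Mccc1 has 2. The data are 4 Agilent SurePrint G3 Mouse arrays, each hybridized with brown adipose tissue (BAT) RNA of 1 male Tg mouse, which ask how BAT expression responds to the integrated stress response (ISR). All 4 mice carry maP2-Fv2E-PERK on the C57/BL6N strain. This transgene joins the drug-binding domain Fv2E to the eIF2α kinase domain of PERK and is driven by the mouse aP2 (Fabp4) promoter. The ligand AP20187 (AP) dimerizes the fusion and switches the kinase on.

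The vehicle group and the AP group held 2 mice each, at 8 weeks of age, and BAT was taken 12 h after the intraperitoneal injection. The dose of AP was given as 1 ng/g in the sample labels and as 0.05 mg/kg in the study's own account, and which one applied could not be settled. The aP2 promoter is also active in monocytes and macrophages. No wild-type mouse was among these arrays, so an effect of AP apart from the kinase could not be told apart from an effect through it.

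Branched-chain amino acids are broken down in mitochondria. BCAT2 moves the amino group of leucine, isoleucine or valine to 2-oxoglutarate, and the branched-chain 2-oxoacid dehydrogenase complex (BCKDH) then commits the carbon skeleton to oxidation. BCKDK, the kinase of the complex, phosphorylates and silences it, whereas PPM1K, its phosphatase, removes the phosphate and turns it back on. BAT is a known consumer of these amino acids during thermogenesis, with SLC25A44 as the carrier that brings them into mitochondria, while ATF4, the transcription factor of the ISR, is known for raising genes of amino acid synthesis and uptake.

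All levels below are log2 signals relative to the 75th percentile of the same array, so that a probe at that percentile has a level of 0, and they compare mice within a probe and not one gene with another. The 11 probes were well above background on all 4 arrays, and no spot was saturated. The tests ran over the 24973 probes that were detected in a whole group, meaning above background in each of its mice. Limma called 0 of them (0.0%) at an adjusted p of 0.05, the lowest adjusted p being 0.80. Without adjustment 1515 (6.07%) fell under 0.05, against 1478 by the methods' t-test, which also called 0 probes after adjustment. With 2 mice against 2, an exact permutation test cannot give a two-sided p below 0.333. Each array is a different mouse of its group, and whether mice with the same replicate number were paired is not stated.

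The arrays were not alike in their cell type markers. All 10 brown adipocyte markers were well above background on every array, and Ucp1, the uncoupling protein of heat production, was at 10.41 and 9.66 in vehicle replicates 1 and 2 and at 9.66 and 10.25 in the AP mice. The 2 vehicle mice lay at opposite ends for skeletal muscle. Vehicle replicate 2 was the highest of the 4 mice for 10 of 10 genes, and vehicle replicate 1 was the lowest for 10 of 10. The summed signal of the list, in units of the 75th percentile, was 33.6 in vehicle replicate 1 and 611.3 in vehicle replicate 2. It was 402.7 in AP replicate 1 and 210.8 in AP replicate 2. Lymphocyte and antigen presentation genes summed to 97.9 in vehicle replicate 2 against 29.4 to 35.7 in the other mice, over the 6 genes tested, with Cd3g, Cd79a and Ms4a1 not well above background. Elovl3, a fatty acid elongase typical of active BAT, was at -1.07 in vehicle replicate 2 and between 3.52 and 6.08 in the others. Vehicle replicate 2 was the lowest mouse for 7 of the 10 brown adipocyte markers and the highest for 1, Adipoq, at 8.44. Dio2 was at 0.49 and 1.53 in vehicle replicates 1 and 2 and at -1.78 and 3.33 in AP replicates 1 and 2. In whole tissue, fewer cells of a type and less RNA per cell cannot be told apart. The difference of each branched-chain gene is therefore also given against vehicle replicate 1 alone and against vehicle replicate 2 alone. The vehicle arrays lay at other positions of the slide than the AP arrays, so slide position and treatment cannot be told apart. The array of vehicle replicate 2 was the only one in slide row 2 and the brightest. Its 75th percentile signal was 158.7 against 118.5 to 127.6 in the others. There 49.0% of spots were well above background, against 46.4% to 46.8%. The part of array brightness in its departure was not tested.

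Genes of the ISR were read as a check of the treatment. Trib3, a pseudokinase and ATF4 target, was at 2.78 and 2.33 in the vehicle mice and at 6.26 and 8.01 in the AP mice. Asns, the ISR-responsive asparagine synthetase, was at 5.49 and 4.79 with vehicle and at 5.86 and 6.76 with AP. For both genes each AP mouse lay above each vehicle mouse, and the AP replicate 2 level was the highest. Ddit3 and Chac1 also separated upward. Atf4 overlapped with both of its probes, for example at 7.49 and 6.12 with vehicle and at 7.26 and 8.23 with AP.

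Among the branched-chain genes, 9 of 10 had a higher mean with AP and 1, Bckdk, had a lower mean, against 51.4% of all 12791 genes tested with a higher mean, taking 1 probe per gene. In the authors' own log2 table, where the median difference of all genes was -0.15 instead of 0.01, the count was 7 of 10, with Ivd and Mccc2 on the lower side. For 4 of the 10 genes (Bckdhb, Dbt, Ppm1k and Hibch) both AP mice lay above both vehicle mice, and for 0 did both lie below. Over all genes tested, 20.1% separated upward in this way and 17.3% downward. The median difference of the 10 genes was 0.38 on the log2 scale, with quartiles of 0.16 and 0.48, and 0 of them reached an adjusted p of 0.05 in limma. Ppm1k was the only one with a limma p under 0.05 before adjustment, against 6.04% of all genes, and it was no longer under it with quantile scaling, without the filter on dim probes, in the authors' log2 table, with the replicate number as a block, by the methods' t-test, or without vehicle replicate 1 or either AP mouse.

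**Figure D1:**
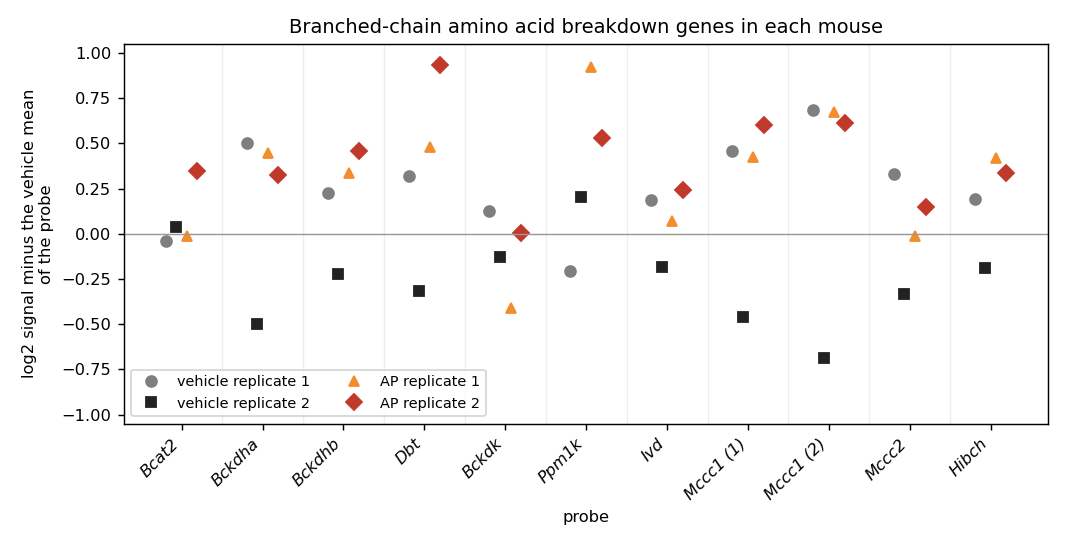
Level of each branched-chain probe in each of the 4 mice, as log2 signal minus the mean of the vehicle mice for that probe. Vehicle replicate 2 (black squares) is the lowest mouse for most probes, whereas for Ppm1k vehicle replicate 1 is the lowest and both AP mice (triangles and diamonds) are above both vehicle mice.

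The size of these differences turned on vehicle replicate 2. The summed signal of the 10 genes was 576.8 in vehicle replicate 1, 577.4 in AP replicate 1 and 577.6 in AP replicate 2, but 357.6 in vehicle replicate 2. Bright probes such as Bckdha (8.09 in vehicle replicate 1) weigh most in this sum, and dim ones such as Ppm1k (-0.27) hardly count. The median log2 level of the 10 genes was 4.85 and 4.37 in vehicle replicates 1 and 2. It was 4.52 and 4.81 in AP replicates 1 and 2. Vehicle replicate 2 was the lowest of the 4 mice for 7 of the 10 genes, against 35.9% of all genes tested. Set against vehicle replicate 1 alone, the AP mice were higher for 6 of the 10 genes, with a median difference of 0.11. Set against vehicle replicate 2 alone they were higher for 9, with a median of 0.55. Over all genes these medians were -0.02 and 0.06. The summed signal of the brown adipocyte list was also lowest in vehicle replicate 2, at 5939 against 7316 to 8945 in the other mice, with 7 of its 10 genes lowest there. By the median log2 level of that list, AP replicate 1 was the lowest, at 8.86 against 8.97 in vehicle replicate 2. The part of muscle, leukocyte or brown adipocyte content in the differences of the branched-chain genes was not tested.

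**Figure D2:**
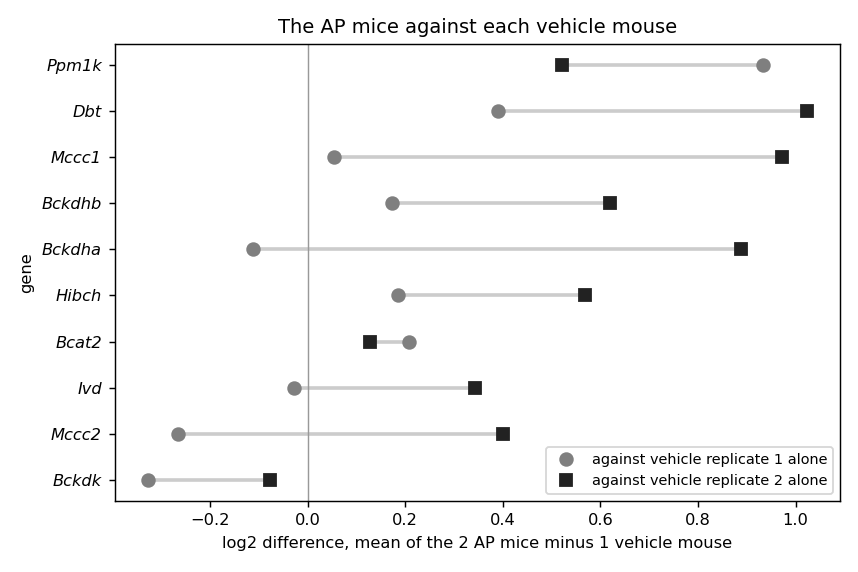
Log2 difference between the mean of the AP mice and each vehicle mouse taken alone, for the 10 genes. Ppm1k, Dbt, Mccc1, Bckdhb, Hibch and Bcat2 lie right of 0 against both vehicle mice, Bckdk lies left of 0 against both, and Bckdha, Ivd and Mccc2 cross 0 between these comparisons.

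At the first step of the pathway the groups did not separate. Bcat2, the mitochondrial aminotransferase, was at 3.16 and 3.24 in the vehicle mice and at 3.19 and 3.55 in the AP mice. AP replicate 1 lay between the vehicle mice, so the groups overlapped. The difference of 0.17 ± 0.23 (SE, n = 2 per group; 1.12-fold) had a limma adjusted p of 0.89 and was 0.21 against vehicle replicate 1 alone and 0.13 against vehicle replicate 2 alone. Its cytosolic counterpart Bcat1 was not detected in a whole group by any of its 3 probes.

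The 3 subunits particular to the BCKDH complex all had higher means with AP. Bckdha, the E1 alpha subunit that carries the phosphorylation sites, was at 8.09 and 7.09 in the vehicle mice and at 8.04 and 7.91 in the AP mice. Both AP mice lay inside the range of the vehicle mice, and the difference was -0.11 against vehicle replicate 1 and 0.89 against vehicle replicate 2. The mean difference was 0.39 ± 0.39 (SE) with a limma adjusted p of 0.85. Bckdhb, the E1 beta subunit that completes the decarboxylase, was at 6.14 and 5.70 with vehicle and at 6.25 and 6.38 with AP. Here the groups did not overlap, although AP replicate 1 exceeded vehicle replicate 1 by little, and the difference of 0.40 ± 0.25 (SE, 1.32-fold) had a limma adjusted p of 0.81. It was 0.17 against vehicle replicate 1 alone and 0.62 against vehicle replicate 2 alone.

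Dbt, the E2 core that passes the acyl group to coenzyme A, had the largest difference of the 3 subunits. Its level was 1.62 and 0.98 in the vehicle mice and 1.78 and 2.23 in the AP mice. Both AP mice were above both vehicle mice, and AP replicate 2 was the highest. The difference was 0.71 ± 0.33 (SE, 1.63-fold), with a 95% interval from -0.16 to 1.57 and a limma adjusted p of 0.80, and it was 0.39 against vehicle replicate 1 alone and 1.02 against vehicle replicate 2 alone. Dld, the E3 subunit that BCKDH shares with the pyruvate and 2-oxoglutarate dehydrogenases, was at 6.39 and 5.93 with vehicle and at 6.13 and 6.19 with AP. Both AP mice lay between the vehicle mice, and the second Dld probe differed by 0.02.

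The enzymes that switch the complex had differences on opposite sides of 0, although that of Bckdk was 0.005 without AP replicate 1. Ppm1k, the activating phosphatase, had the lowest unadjusted p and the largest difference of the 10 genes. It was at -0.27 and 0.14 in the vehicle mice, with a mean of -0.06 ± 0.29 (SD, n = 2), and at 0.86 and 0.47 in the AP mice, with a mean of 0.66 ± 0.28 (SD, n = 2). Both AP mice were above both vehicle mice, and unlike most of the other genes the lowest level was that of vehicle replicate 1. The difference of 0.73 ± 0.27 (SE, 1.66-fold) had a 95% interval from 0.004 to 1.45 and a limma adjusted p of 0.80. By unadjusted p it ranked 1487 among the 24973 probes and by the size of the upward difference 1229. It was 0.93 against vehicle replicate 1 alone and 0.52 against vehicle replicate 2 alone.

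Bckdk, the inhibitory kinase, was at 4.21 and 3.96 in the vehicle mice and at 3.67 and 4.09 in the AP mice. AP replicate 2 lay between the vehicle mice and AP replicate 1 was the lowest. The difference was -0.20 ± 0.25 (SE, 0.869-fold), with a limma adjusted p of 0.88. It was -0.33 against vehicle replicate 1 alone and -0.08 against vehicle replicate 2 alone. The ratio of Ppm1k to Bckdk within each array, a comparison chosen after the values were seen, was -0.33 and 0.33 in the vehicle mice and 1.33 and 0.53 in the AP mice as log2 relative to the vehicle mean. Both AP mice were above both vehicle mice, by 0.93 on average (exact permutation p = 0.333, two-sided, the smallest this design allows). It was 1.26 against vehicle replicate 1 and 0.60 against vehicle replicate 2. Since the pair was picked for its values, this is a description and no test of unequal change.

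The stretch upstream of Ppm1k and Bckdk is shown because their products act on the same complex in opposite ways. Each sequence holds the 250 bases before the transcript start of the RefSeq annotation of GRCm38.p6, 5′ to 3′ on the strand of the gene. That of Ppm1k lies at chr6:57535488-57535737 on the minus strand and that of Bckdk at chr7:127903823-127904072 on the plus strand.
Ppm1k: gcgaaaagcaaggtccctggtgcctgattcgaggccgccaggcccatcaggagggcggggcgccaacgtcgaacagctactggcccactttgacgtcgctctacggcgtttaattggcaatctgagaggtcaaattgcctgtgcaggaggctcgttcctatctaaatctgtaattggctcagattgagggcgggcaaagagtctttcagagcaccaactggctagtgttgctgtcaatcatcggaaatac
Bckdk: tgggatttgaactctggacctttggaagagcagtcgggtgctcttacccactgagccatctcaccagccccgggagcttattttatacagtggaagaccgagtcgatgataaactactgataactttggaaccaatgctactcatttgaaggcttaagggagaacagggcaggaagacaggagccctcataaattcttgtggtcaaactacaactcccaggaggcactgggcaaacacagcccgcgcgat

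The core of the C/EBP-ATF composite element, TGATGNAA, was searched on both strands in windows from 250 bases before to 50 after each start. Windows were listed for 9 of the 10 genes, without Dbt, and 0 of their 11 windows held it, against 3.97% of 32851 windows of all genes. Windows were listed for 17 of the other 23 pathway genes, and of these Echs1, the short-chain enoyl-CoA hydratase, was the only one whose window held it. Among the 5 ISR genes looked at (Trib3, Ddit3, Atf4, Asns and Chac1), 3 held it. These are printed with Echs1 for comparison, 30 bases each, with the element in capitals.
Asns: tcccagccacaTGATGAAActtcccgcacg
Chac1: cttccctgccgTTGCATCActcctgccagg
Trib3: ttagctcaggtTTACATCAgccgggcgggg
Echs1: caccaccaaagTGATGCAAttaacagacta
They lie at chr6:7693214-7693243 (minus strand), chr2:119351038-119351067 (plus), chr2:152344028-152344057 (minus) and chr7:140116567-140116596 (minus), with the element at -23, -193, 15 and -164 from the start of the gene. In Chac1 and Trib3 the element is on the strand opposite to the gene and is printed as read along the gene. A match or its absence describes only these letters in these windows.

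The leucine branch downstream of BCKDH did not separate the groups. Ivd, the isovaleryl-CoA dehydrogenase, was at 5.48 and 5.11 with vehicle and at 5.37 and 5.54 with AP, a difference of 0.16 ± 0.24 (SE; limma adjusted p = 0.90). AP replicate 1 lay between the vehicle mice, and the difference was -0.03 against vehicle replicate 1 alone and 0.34 against vehicle replicate 2 alone. Mccc1, the biotin-carrying alpha subunit of methylcrotonyl-CoA carboxylase, was measured by 2 probes. With probe A_55_P1953899 it was at 5.70 and 4.78 in the vehicle mice and at 5.66 and 5.84 in the AP mice. With probe A_55_P1970414 it was at 3.30 and 1.92 and at 3.29 and 3.22. Both probes placed vehicle replicate 2 well under the other 3 mice, which lay close together.

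The Mccc1 differences were 0.51 ± 0.37 and 0.64 ± 0.50 (SE), with limma adjusted p values of 0.82 for both probes. Against vehicle replicate 1 alone they came to 0.06 and -0.04, whereas against vehicle replicate 2 alone they came to 0.97 and 1.33. Mccc2, the beta subunit of the same carboxylase, was at 3.58 and 2.91 with vehicle and at 3.23 and 3.39 with AP. Both AP mice lay between the vehicle mice. Its difference of 0.07 ± 0.30 (SE, limma adjusted p = 0.97) was 0.40 against vehicle replicate 2 alone and turned to -0.26 against vehicle replicate 1 alone, to -0.02 with normexp background correction and to -0.09 in the authors' log2 table.

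In the valine branch, Hibch, the hydrolase that frees 3-hydroxyisobutyrate from coenzyme A, was at 6.56 and 6.17 in the vehicle mice and at 6.78 and 6.70 in the AP mice. Both AP mice were above both vehicle mice and lay close to each other. The difference of 0.38 ± 0.24 (SE, 1.30-fold) had a limma adjusted p of 0.81 and was 0.19 against vehicle replicate 1 alone and 0.57 against vehicle replicate 2 alone.

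**Figure D3:**
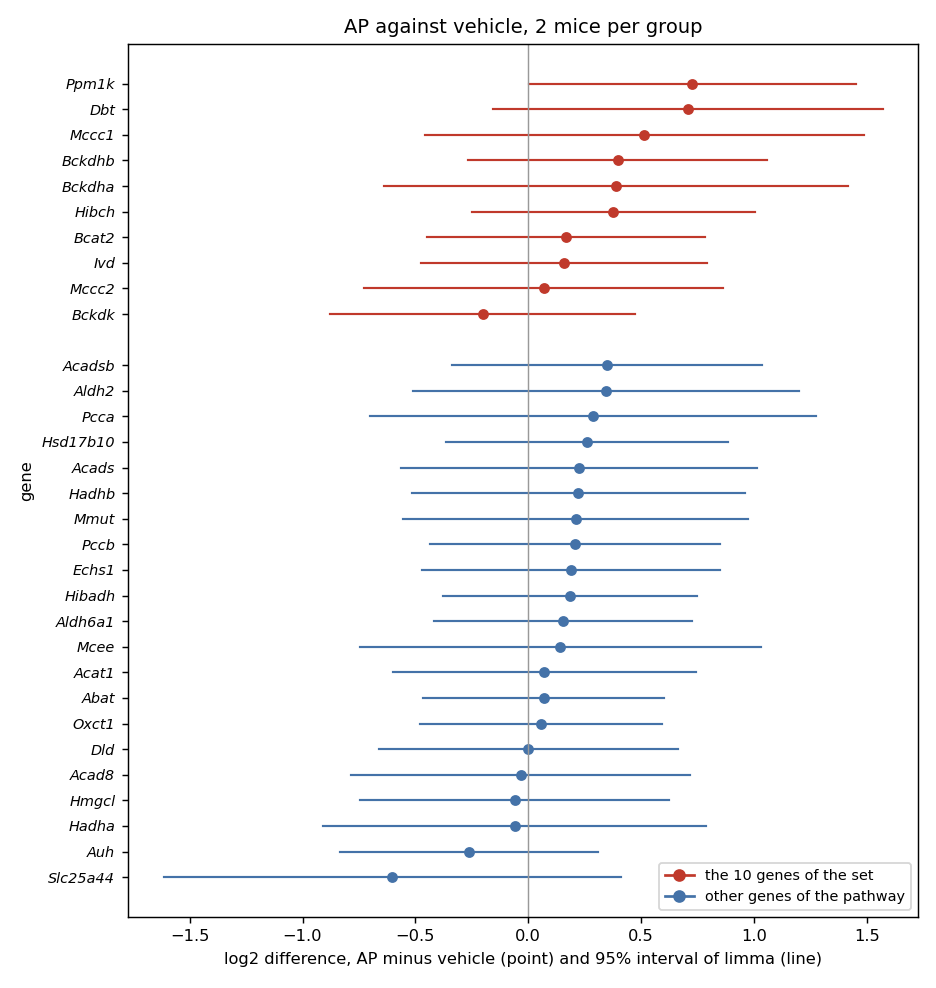
Log2 difference between AP and vehicle (point) with the 95% interval of limma (line) for the 10 branched-chain genes (red) and for 21 other genes of the pathway (blue), 1 probe per gene. Ppm1k is the only gene whose interval, from 0.004 to 1.45, does not reach 0, and Slc25a44 lies farthest to the left at -0.60.

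The rest of the pathway was read from a list of 23 genes, of which 21 were tested and Bcat1 and Agxt2 were not well above background. Of the 21 tested, 16 had a higher mean with AP and 5 a lower mean, against 51.4% higher over all genes. Their median difference was 0.15, and 10 were higher in the authors' log2 table. Acadsb, Hsd17b10 and Hibadh separated upward and Auh, the methylglutaconyl-CoA hydratase of leucine breakdown, separated downward. That is 3 and 1 of 21 at 1 probe per gene, against 20.1% upward and 17.3% downward over all genes. For 18 of the 21 vehicle replicate 2 was the lowest mouse, against 35.9% of all genes. Against vehicle replicate 1 alone 6 of 21 were higher, with a median of -0.11. The largest upward differences were those of Acadsb, the dehydrogenase of the isoleucine branch, at 0.35, Aldh2, an aldehyde dehydrogenase, at 0.35 and Pcca, the propionyl-CoA carboxylase alpha subunit, at 0.29, and Auh was at -0.26. None of the 21 genes had a limma p under 0.05 before adjustment with the probe counted for the gene.

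Slc25a44, the mitochondrial carrier of branched-chain amino acids, was on the lower side with both of its probes. With probe A_51_P488768 it was at 2.25 and 1.32 in the vehicle mice and at 1.02 and 1.35 in the AP mice. AP replicate 2 just exceeded vehicle replicate 2, and the difference was -0.60 ± 0.38 (SE). It was -1.07 against vehicle replicate 1 alone and -0.14 against vehicle replicate 2 alone. With the dimmer probe A_55_P2119458 it was at -0.20 and -0.48 and at -1.15 and -0.91. There both AP mice were below both vehicle mice, and the difference of -0.70 ± 0.23 (SE, limma adjusted p = 0.80) had a 95% interval from -1.31 to -0.08. It was -0.84 and -0.55 against vehicle replicates 1 and 2 alone, and -0.39 with normexp background correction.

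The sister complexes of BCKDH gave a comparison with enzymes of like build. Among 12 genes of the pyruvate and 2-oxoglutarate dehydrogenases, their kinases and phosphatases, 5 had a higher and 7 a lower mean with AP. Over all genes tested 51.4% had a higher mean. The median difference of the 12 genes was -0.04. Against vehicle replicate 1 alone the median was -0.21 with 3 of 12 higher, and against vehicle replicate 2 alone it was 0.16 with 7 of 12 higher, so its sign turned on the vehicle mouse. Dlat, the E2 core of pyruvate dehydrogenase and the counterpart of Dbt, was at 4.63 and 4.10 in the vehicle mice and at 3.70 and 4.03 in the AP mice. Both AP mice were below both vehicle mice, with a mean difference of -0.50 and differences of -0.76 and -0.23 against vehicle replicates 1 and 2 alone. No other gene of this list separated with the probe counted for it, while the third Pdp1 probe and the third Ogdh probe separated upward. Over all genes tested, 17.3% separated downward and 20.1% upward. Pdk4, a pyruvate dehydrogenase kinase and the counterpart of Bckdk, was at 5.98 and 6.65 with vehicle and at 7.99 and 6.51 with AP, so the groups overlapped. Whether the branched-chain genes differed from this list was not tested.

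Of 5 known regulators of the pathway or of BAT metabolism (Klf15, Ppargc1a, Ppara, Mlxipl and Pparg), Klf15 stood out. Klf15 encodes a transcription factor known to promote branched-chain amino acid breakdown in muscle and heart. It was at 0.52 and 0.69 in the vehicle mice and at 2.39 and 2.59 in the AP mice. The groups were far apart relative to the spread within them, with a difference of 1.89 ± 0.22 (SE, 3.70-fold), a 95% interval from 1.32 to 2.46 and rank 10 of 24973 by unadjusted p. It was 1.97 and 1.80 against vehicle replicates 1 and 2 alone. Its limma adjusted p was 0.80, as for the other probes at the top of the array. Pparg, the master regulator of adipocytes, also separated upward, by 0.24, and the other 3 overlapped. Of these 5 genes, 0 were lowest in vehicle replicate 2, against 35.9% of all genes tested.

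**Figure D4:**
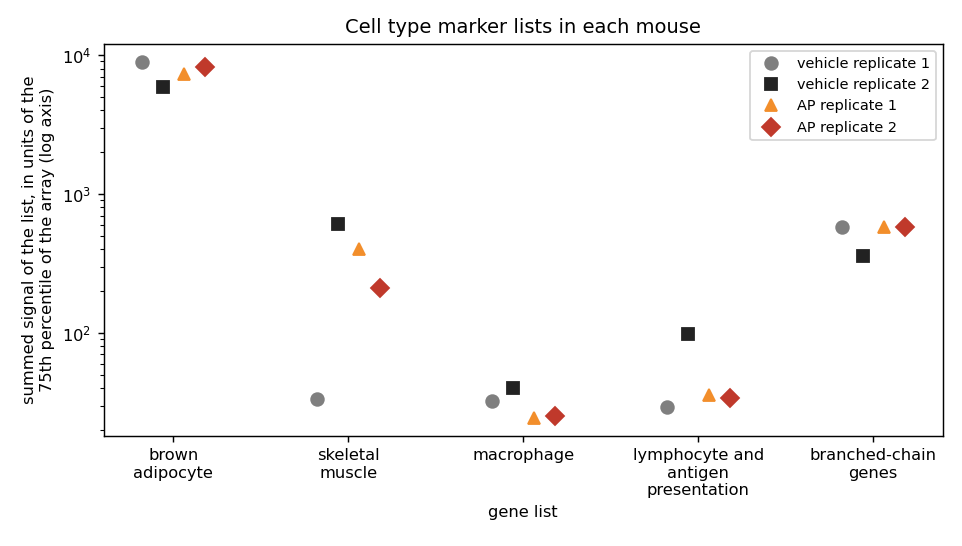
Summed signal of marker lists and of the 10 branched-chain genes in each mouse, in units of the 75th percentile of the array, on a log axis. Bright probes weigh most in each sum. Skeletal muscle signal runs from 33.6 in vehicle replicate 1 to 611.3 in vehicle replicate 2, and the branched-chain genes are near 577 in 3 mice and at 357.6 in vehicle replicate 2.

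Other cell types the tissue could hold were read beside these results. The 6 macrophage markers tested of 9 summed to 32.5 and 40.3 in the vehicle mice and to 24.4 and 25.1 in the AP mice, with Cd163 not well above background. Of the 6, Itgam separated downward and the other 5 overlapped, and the median log2 level of the list was 0.69 and 1.38 with vehicle and 0.97 and 0.29 with AP. The 4 white adipocyte markers tested of 6 summed to 48.3 and 55.7 with vehicle and to 35.3 and 38.9 with AP, with Hoxc8 and Hoxc9 not well above background. Lep and Retn separated downward, Nrip1 separated upward and Nnat overlapped, and the median log2 level of the list was 0.26 and 2.34 with vehicle and 0.60 and 0.22 with AP. Erythroid genes, 2 tested of 4, summed to 516.6 and 333.9 with vehicle and to 252.2 and 364.1 with AP. Endothelial genes, 3 of 3, summed to between 31.6 and 36.4 in all 4 mice. The summed macrophage and white adipocyte levels thus did not overlap between the groups, whereas the medians of both lists overlapped. Bright genes weigh most in such sums. In vehicle replicate 1 Itgam was at 4.21 and Csf1r at 3.27, and Retn was at 5.50 and Nrip1 at 0.48. The part of these cell types in the differences of Ppm1k, Dbt, Bckdhb and Hibch was not tested.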

How the data were processed

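BAT RNA of 4 Tg mice was measured on one-color arrays. Per the file headers, the authors extracted the scans with Agilent Feature Extraction 10.7.1.1 and deposited the intensity of each spot, background-subtracted and not normalized between arrays. A second deposited table holds log2 values of the authors, whose normalization and centring are not given in the sources used here. Its column medians were -0.28 and -0.16 (vehicle) and -0.44 and -0.29 (AP), and its differences between arrays correlated with those of the intensities at r of at least 0.9998 over 24868 probes.

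The processed intensities were put on the log2 scale and each array was set to its 75th percentile, without control and outlier-flagged spots, and spots of a probe were averaged. Kept were the probes well above background in each mouse of 1 group or more (24973 of 55681). AP was compared with vehicle in limma 3.58.1 (lmFit, eBayes; R 4.3.3), without a block, with Benjamini-Hochberg adjustment. Probes were named by accession through a RefSeq table of GRCm38.p6, used for names and promoter sequences (26582 probes, 20145 genes). The array design names another build. A gene with several probes was counted once, by its brightest tested probe. Every probe of the 10 genes is reported, and other pathway genes are named if the groups do not overlap at an unadjusted p under 0.05, if they are among the 5 largest differences, or if they complete a complex or step; others were named after their values were seen.

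Between 46.4% and 49.0% of spots were well above background, and precision is limited by the number of arrays. All arrays were on 1 slide and read in 1 scan. The vehicle arrays correlated at r = 0.972 and the AP arrays at r = 0.981 (Pearson, across probes). The genes and lists were chosen with earlier results of these data known.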

Additional observations from a re-analysis of the deposited data

How the results depend on the processing

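No probe passed an adjusted p of 0.05 under any setting run (normexp, quantile or median scaling, no filter or a stricter one, a replicate block, a variance trend, the methods' t-test, the authors' table, or any single mouse left out). The unadjusted count of 1515 became 2610 without the filter, where more probes were tested, and lay between 1003 and 2178 when single mice were left out. Ppm1k kept its sign under all of these (0.48 to 0.81, and 0.52 to 0.93 without single mice), with an unadjusted limma p of 0.0491 that became 0.0419 with normexp and 0.139 in the authors' table, as did Dbt (0.55 to 0.79, and 0.39 to 1.02), Bckdhb (0.17 to 0.62 without single mice) and Hibch (0.19 to 0.57). Mccc2 reversed with normexp (-0.0186) and in the authors' table (-0.0936), as did Ivd in the authors' table (-0.00393). All branched-chain probes had lower differences in that table than in the main setting, by nearly the same amount. Dbt went from 0.71 to 0.55 and Ivd from 0.16 to -0.00393. The median of all genes went from 0.01 to -0.15, so the reversals in that table went with a shift common to these probes. Without single mice the differences ran from -0.265 to 0.400 for Mccc2, -0.0278 to 0.343 for Ivd, -0.113 to 0.889 for Bckdha, -0.0411 to 1.33 for the second Mccc1 probe, -0.409 to 0.00521 for Bckdk and -0.0119 to 0.347 for Bcat2, reversing where vehicle replicate 2 (Mccc2, Ivd, Bckdha, Mccc1), AP replicate 1 (Bckdk) or AP replicate 2 (Bcat2, and Mccc2 at -0.0104) was left out. The causes of the reversals outside the authors' table were not tested.

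The median of the 10 genes lay between 0.11 (without vehicle replicate 2) and 0.55 (without vehicle replicate 1). It was 0.13 to 0.48 above that of all genes, with 6 to 10 genes higher. In the authors' table it was 0.22, which lay 0.37 above that of all genes there, against 0.37 in the main setting. The other pathway genes had a median from -0.11 to 0.32 without single mice, with 6 to 19 genes higher. In the authors' table their median was -0.01 with 10 genes higher, and the median of all genes there was -0.15.

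The replicate numbers are not stated to pair the mice, and same-numbered mice deviated with a correlation of -0.13. With the replicate number as a block, 1226 probes had an unadjusted limma p under 0.05, and the Ppm1k difference of 0.73 had a p of 0.0913. The crossed pairing, added after the data were seen, gave 1566 probes (6.27% of those tested), 2 of them among the 11. With normexp 3 of the 11 had an unadjusted limma p under 0.05, against 6.37% of all probes. In the other planned settings that kept every mouse the count among the 11 was 0 or 1. A block for slide or scan was not run, since there was 1 of each.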
